A study of Mus musculus with 3 samples.

Results

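The genes described here encode the subunits of the constitutive proteasome. All symbols made of Psma, Psmb, Psmc or Psmd and a number were taken from the platform annotation, without Psmb8, Psmb9 and Psmb10. The rule gave 36 genes of 18193 with a single-gene probe set. The arrays read RNA of dendritic cells, which present antigen to T cells, raised from mouse bone marrow (BMDCs) over 10 days with 10 ng/ml GM-CSF, a growth factor for myeloid cells. Cultures of this kind can also hold macrophages and granulocytes. The unstimulated cells, BMDC(-), received no agent. The second culture, BMDC(+LPS), received 10 ng/ml lipopolysaccharide (LPS), a bacterial membrane component, for 3 h. The third, BMDC(+LPS+cAMP), received the same LPS together with 100 µM 8-Br-cAMP, a cell-permeable analogue of cyclic AMP, for 3 h. The labels give no strain, genotype or age. With 1 Affymetrix array per condition there were no replicates, and every value below is a description without a test.

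The proteasome is the large protease that degrades proteins tagged with ubiquitin. Its 20S core is a barrel of stacked rings. The outer alpha rings gate entry and the inner beta rings carry the cutting sites. The 19S cap on the barrel binds ubiquitin chains and feeds substrates in. Its base holds a ring of ATPases that unfold the substrate and its lid removes the ubiquitin. In immune cells, interferon signals can replace the cutting subunits Psmb5, Psmb6 and Psmb7 with Psmb8, Psmb9 and Psmb10, which alters the peptides made for MHC class I. Subunits are made in concert in many cells, in part through the transcription factor Nfe2l1.

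The array with 8-Br-cAMP stood apart from the others. Its deposited signals were the dimmest and were multiplied by 1.63, against 0.763 for the unstimulated array and 0.929 for the LPS array. After scaling, all 11 dendritic cell markers sought were above the floor of 32.5, the level below which signals were not told apart, on every array. The summed signal of 10 granulocyte markers was 37035 unstimulated, 40929 with LPS and 19928 with 8-Br-cAMP, with 7 of 10 at least 2-fold lower there than with LPS. All 10 were above the floor on that array, and the lowest was Mpo at 50.5. Eosinophil markers, 3 in all, summed to 1319, 1405 and 491 in the same order, and 5 macrophage markers to 14787, 16228 and 14059. Among the macrophage markers Mertk (-1.65), Adgre1 (-0.84) and Cd68 (-0.77) were lower with 8-Br-cAMP than with LPS on the log2 scale, Csf1r (0.14) and Fcgr1 (0.43) were higher, and the median was -0.77. The sum of 5 B and plasma cell markers was 1872, 1542 and 159, with 2 of 5 above the floor on the last array. Of 5 T and NK cell markers 3, 1 and 1 were above the floor, and of 2 erythroid markers 0. Xist, the transcript of the inactive X chromosome, read 1716 with 8-Br-cAMP and lay under the floor on the other arrays, and Eif2s3y, a Y-linked gene, read 1.24 there against 272 and 352. Cultures that differed in sex transcripts and in granulocyte and macrophage transcripts are therefore set side by side wherever this array is used, and the part of these differences in the results was not tested. Tnf, a cytokine that LPS raises, read 5206 with LPS and was under the floor without it. Crem, a gene that cyclic AMP raises, read 1983 with 8-Br-cAMP against 116 with LPS alone.

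The stretches before the annotated starts of 4 members are shown because these were the members past 2-fold against unstimulated cells, with LPS alone or with both agents: Psma6, Psmb6 and Psmd11 higher, and Psmd5 lower. Sequences are from RefSeq on GRCm38.p6, printed 5′ to 3′ on the gene's strand, and stop before the outermost annotated start where it lies in the window. Capitals mark matches to the motifs searched on both strands. These were TGACNNNGC (the core of the antioxidant response element, which Nfe2l1 and related factors bind), CCAAT (the NF-Y box), CGGAAG (an Ets factor site) and GGGCGG (the GC box). The Psma6 stretch is chr12:55398575-55398824 on the plus strand, before the downstream of the gene's annotated starts, so it lies inside the span of the longer annotated gene. The Psmb6 stretch is chr11:70525107-70525323 on the plus strand, that of Psmd11 is chr11:80428365-80428614 on the plus strand, and that of Psmd5 is chr2:34870966-34871212 on the minus strand.
Psma6: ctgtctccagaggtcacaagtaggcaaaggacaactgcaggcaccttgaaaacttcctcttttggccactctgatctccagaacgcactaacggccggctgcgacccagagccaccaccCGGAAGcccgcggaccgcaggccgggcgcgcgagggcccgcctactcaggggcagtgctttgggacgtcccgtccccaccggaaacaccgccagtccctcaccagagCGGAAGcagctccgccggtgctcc
Psmb6: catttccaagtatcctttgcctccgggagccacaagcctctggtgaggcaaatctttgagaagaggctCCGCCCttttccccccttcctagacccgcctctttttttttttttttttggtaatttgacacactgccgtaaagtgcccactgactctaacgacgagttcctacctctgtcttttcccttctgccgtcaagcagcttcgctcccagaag
Psmd11: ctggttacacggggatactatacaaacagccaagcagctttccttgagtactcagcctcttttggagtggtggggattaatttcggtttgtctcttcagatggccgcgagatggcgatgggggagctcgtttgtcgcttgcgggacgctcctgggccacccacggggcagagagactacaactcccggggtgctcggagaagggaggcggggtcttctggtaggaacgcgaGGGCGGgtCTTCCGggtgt
Psmd5: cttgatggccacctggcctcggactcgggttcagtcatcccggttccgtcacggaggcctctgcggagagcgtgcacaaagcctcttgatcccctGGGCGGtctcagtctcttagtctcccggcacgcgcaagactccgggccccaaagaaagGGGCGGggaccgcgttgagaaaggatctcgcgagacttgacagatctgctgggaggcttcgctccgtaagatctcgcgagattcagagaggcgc
The printed stretch of Psma6 held 2 Ets sites, that of Psmb6 1 GC box, that of Psmd11 1 Ets site and 1 GC box, and that of Psmd5 2 GC boxes. The whole window of Psmb6, which runs past the stretch printed, also held 1 antioxidant response core, and those of Psma6 and Psmd5 held 4 Ets sites and 3 GC boxes, respectively. The window at the upstream start of Psma6, at chr12:55383972, held 2 NF-Y boxes and no Ets site.

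Promoter windows of 250 bases before to 50 after a start were matched for 29 of the 36 members. The Ets site was in the windows of 18 of 29 members (62.1%), against 23.5% of 17491 protein-coding genes and 16.9% of all windows. The GC box was also in 18 of 29 (62.1%), against 49.2% of protein-coding genes. The NF-Y box was in 12 of 29 (41.4%), against 42.3%, and the antioxidant response core in 5 of 29 (17.2%), against 14.8%. Of the motifs searched, the Ets site had the widest gap to the protein-coding genes. The 5 members with the antioxidant core were Psmb5, Psmb6, Psmc6, Psmd9 and Psmd12. Their log2 differences with LPS ran from -0.61 for Psmd9 to 1.20 for Psmb6. A match is a run of letters in a window and not evidence of binding.

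Of the 36 members, 34 were above the floor on all 3 arrays. The exceptions were the subunits restricted to certain tissues. Psma8, the testis form of an alpha subunit, read 40.8 unstimulated, 5.54 with LPS and 16.2 with 8-Br-cAMP, so it was above the floor on the unstimulated array alone. Psmb11, the beta subunit of the thymus, read 25.6, 17.3 and 31.6, under the floor throughout. Signals of different probe sets cannot be set against each other, so the results below compare each gene with itself across arrays. In bulk RNA, fewer cells of a type and less RNA per cell cannot be told apart.

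**Figure D1:**
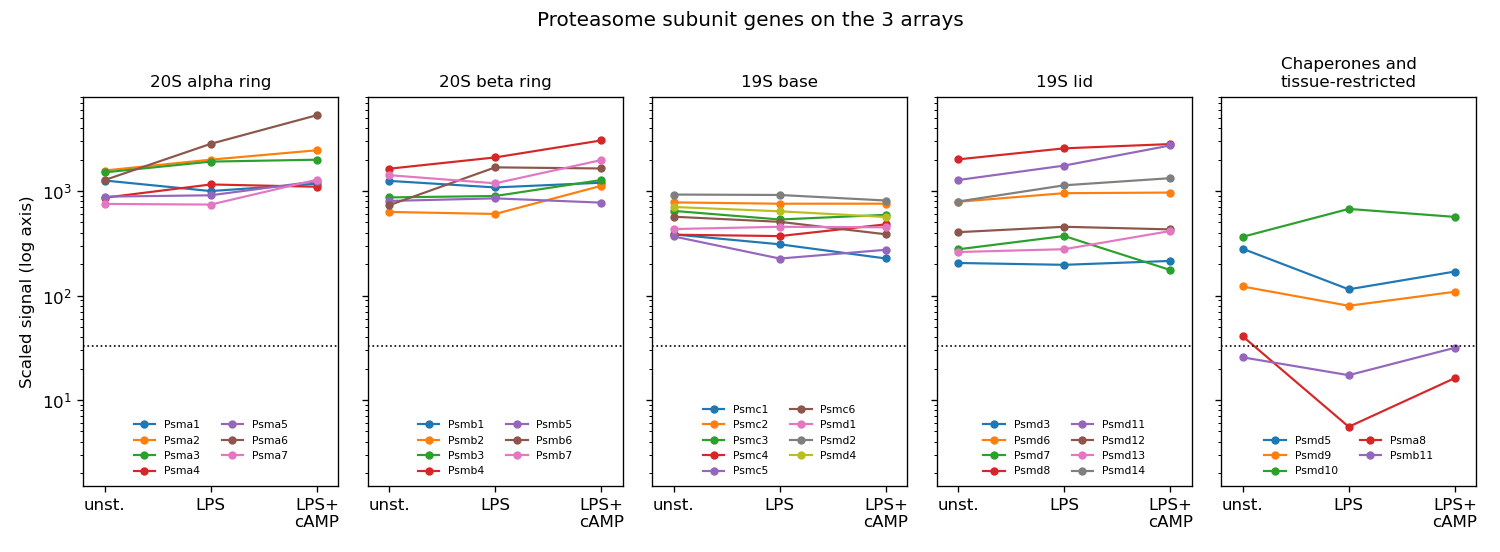
Scaled signal (log axis) of each of the 36 members on the unstimulated (unst.), LPS and LPS+8-Br-cAMP (LPS+cAMP) arrays, 1 array each, with a line per gene and the floor of 32.5 dotted. Most lines are close to level; Psma6 climbs from 1272 to 5317, Psmb6 steps up from 731 to 1684 with LPS, and Psma8 and Psmb11 lie near or under the floor.

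Proteasome subunit genes differed little between the LPS and unstimulated cultures. Of 35 measured members 29 lay within 1.5-fold. With LPS 3 exceeded it upwards, against 13.9% of all measured genes, and 3 downwards, against 28.6%. By any amount 18 members were higher (background 38.2%) and 17 lower. Thus 17.1% of members passed 1.5-fold, against 42.5% of all 12283 measured genes and 43.5% of those with a mean signal of 200 or more, the range of 32 of the members. At 2-fold, 2 members were higher, against 6.64% of all measured genes, and 1 was lower, against 13.0%. The median log2 difference of the members was 0.043, and that of all measured genes was -0.21. The sign of the members' median depended on the scaling and was negative under quantile normalization (-0.13), spike scaling (-0.29) and in the deposited signals (-0.24). For comparison, the log2 difference of 1 probe set had an error of 0.45. It came from 4029 genes whose brightest pair of probe sets was above the floor on both arrays. Over the 16 members among them it was 0.18. This error measures the disagreement between probe sets of a gene on the same arrays, and not the variation between cultures.

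In the alpha ring, Psma6 was the member that stood out. Its signal was 1272 unstimulated, 2828 with LPS and 5317 with LPS and 8-Br-cAMP, 2.22-fold higher with LPS than without (log2 difference 1.15, 0.82 to 1.22 across scalings). Its second probe set, nearly as bright, read 1109, 2564 and 4441. Both were higher at each step, while a dimmer probe set read 113, 329 and 113 and the dimmest lay near the floor. Psma2 (0.34), Psma3 (0.34) and Psma4 (0.42) were higher with LPS by less than 1.5-fold, Psma5 (0.04) and Psma7 (-0.02) were almost equal, and Psma1 differed by -0.34. The ring's median was 0.34, and 0.032 under quantile normalization.

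In the beta ring, Psmb6, which carries the caspase-like cutting site, was 2.31-fold higher with LPS, at 1684 against 731. It had 1 probe set, and its log2 difference of 1.20 lay between 0.87 and 1.27 across scalings. The other cutting subunits lay within 1.5-fold. Psmb5, of the chymotrypsin-like site, read 804 unstimulated and 850 with LPS, and Psmb7, of the trypsin-like site, 1418 and 1185. The structural subunits Psmb1, Psmb2, Psmb3 and Psmb4 had log2 differences of -0.21, -0.06, 0.04 and 0.36. Within the ring, then, 1 of 7 subunits passed 1.5-fold, and the ring's median was 0.04 (-0.29 under spike scaling).

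The ATPases of the base, Psmc1 to Psmc6, were all lower with LPS, by -0.70 to -0.04, under the main scaling. With median scaling 2 of 6 were higher and with cyclic loess 1 of 6. Psmc1 (-0.32), Psmc3 (-0.27), Psmc6 (-0.16), Psmc2 (-0.04) and Psmc4 (-0.04) lay within 1.5-fold. The second probe set of Psmc4, of similar brightness, gave 0.47, so its direction depends on the probe set. Psmc5 was the furthest, at 226 with LPS against 368 unstimulated (1.63-fold lower, log2 differences of -1.04 to -0.60 across scalings). The ATPases' median of -0.22 was close to the -0.21 of all measured genes. The scaffold Psmd2 read 925 and 916, the scaffold Psmd1 432 and 455, and the ubiquitin receptor Psmd4 704 and 640. All of these were within 1.5-fold.

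The lid went slightly the other way. Of its 8 members 7 were higher with LPS, with a median of 0.31, and none passed 1.5-fold. Psmd14, the enzyme that cuts ubiquitin off the substrate, read 793 unstimulated and 1134 with LPS (0.52). Psmd11 (0.46), Psmd7 (0.42), Psmd8 (0.35) and Psmd6 (0.27) were higher by less, and Psmd3 differed by -0.06. Under spike scaling and in the deposited signals 4 of 8 were higher. The other bright probe sets of Psmd11 gave -0.02, 0.36 and 0.32, and the other one of Psmd6 gave 0.35. Psmd12, a scaffold of the lid, differed by 0.17. Psmd13 differed by 0.09, and its other measured probe sets gave -0.12 and -0.33. Those of Psmd7 gave 0.75 and -0.49, from signals near the floor.

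The assembly chaperones of the cap are named like subunits but leave before the proteasome is complete. With LPS all 3 passed 1.5-fold under the main scaling, and Psmd5 differed the most of all members. Psmd10 differed by less than Psma6 and Psmb6, and Psmd9 by less than Psmc5 as well. Psmd5 read 280 unstimulated, 115 with LPS and 170 with LPS and 8-Br-cAMP, 2.45-fold lower with LPS (-1.62 to -1.11 across scalings). Psmd9 went the same way at 122, 79.8 and 109, 1.53-fold lower with LPS, but within 1.5-fold under median scaling (-0.55), quantile normalization (-0.37), cyclic loess (-0.37), a pseudocount (-0.46), a higher floor (-0.16) and the mean over probe sets (-0.34). Psmd10, also called gankyrin, went the opposite way at 364, 674 and 565, 1.85-fold higher with LPS, and by 0.55 on the log2 scale under spike scaling. These 3 genes were thus 3 of the 6 members past 1.5-fold. Without them and the tissue-restricted subunits, 2 members were at least 1.5-fold higher, Psma6 and Psmb6, and 1 lower, Psmc5. Psmd9 and Psmd5 also had the lowest mean signals of the members above the floor on every array. The part of low signal in their differences was not tested.

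**Figure D2:**
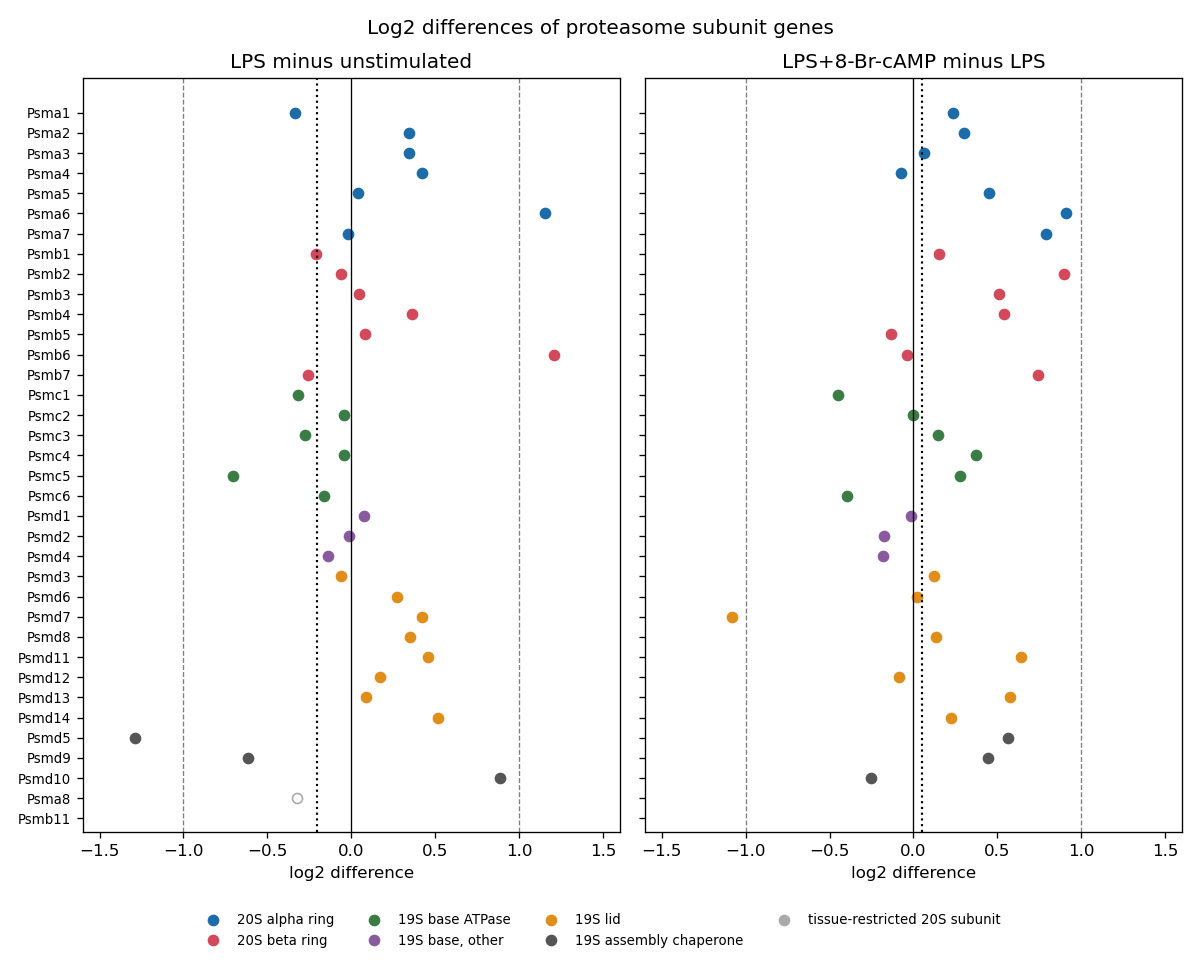
Log2 difference of each member for LPS minus unstimulated (left) and LPS+8-Br-cAMP minus LPS (right), 1 array against 1, coloured by role; dashed lines mark 2-fold, the dotted line the median of all measured genes, and the open circle a value with 1 array at the floor. Psma6 and Psmb6 lie beyond 2-fold on the left at 1.15 and 1.20 and Psmd5 at -1.29, and Psmd7 lies beyond it on the right at -1.08.

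Adding 8-Br-cAMP to LPS also left most members within 1.5-fold, 28 of 34. Past it were 5 upwards, against 18.1% of 12572 measured genes, and 1 downwards, against 15.8%. Together 17.6% of members passed, against 33.9% of genes. At 2-fold no member was higher, against 6.49% of all genes, and 1 was lower, against 5.81%. The members' median was 0.15, against 0.049 for all genes, and 23 of 34 were higher by some amount, against 53.2% of all genes. This direction rests on the scaling of the dim array: in the deposited signals the members' median was -0.66 and that of all genes -0.65, and 2 of 34 members were higher. The error of 1 probe set in this comparison was 0.48, and 0.44 over the 15 members that allowed it.

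The core and the base of the cap differed in this comparison. Of the 14 ring subunits of the 20S core 11 were higher with 8-Br-cAMP, with a median log2 difference of 0.37, but 2 of 14 and -0.44 in the deposited signals. Of the 9 subunits of the base 4 were higher, with a median of -0.02. The gap between these medians was 0.39, and 0.30 to 0.39 in every scaling tried. A common factor for an array leaves it in place, and the choice of probe set was not varied for it. Other probe sets of Psmb4 (-1.31), Psmc6 (0.38) and Psmd4 (0.06 and 0.36) had the opposite sign to the brightest. Over all members, 11 of 25 other probe sets had the sign of the brightest. Of the 8 lid subunits 6 were higher, with a median of 0.13, and 0 of 8 in the deposited signals. With 1 array per condition the gap could not be tested. The granulocyte markers, with a median of -1.54 in the same comparison, were lower on this array, as was the macrophage markers' median, and their part in the gap was not tested.

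Psmb2, a structural beta subunit, read 631 unstimulated, 603 with LPS and 1123 with 8-Br-cAMP, 1.86-fold higher than with LPS. Psma7, an alpha subunit, read 752, 742 and 1283, 1.73-fold higher, and its second probe set read 787, 732 and 1064. Psmb7 read 1418, 1185 and 1979, 1.67-fold higher. In these 3 genes the LPS array was the lowest of the arrays and the 8-Br-cAMP array the highest. Psma6 was higher again, 1.88-fold over LPS alone, by its brightest probe set, and by 0.79 on the log2 scale by the next. The mean over its probe sets gave 0.013 and the deposited signals 0.10. Its dimmer probe set read 329 with LPS and 113 with 8-Br-cAMP, the opposite direction.

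Below 1.5-fold, Psmb4 (0.54) and Psmb3 (0.51) were higher, and Psma5 (0.45) as well. The second probe sets of Psmb3 (0.77) and Psma5 (0.52) went the same way. That of Psmb4 went from 897 with LPS to 362 with 8-Br-cAMP (-1.31), against 2097 to 3050 for its brightest, so the direction of Psmb4 depends on the probe set. The remaining core subunits below 0 were Psmb5 (-0.14), Psma4 (-0.07) and Psmb6 (-0.04). Of the cutting subunits, Psmb7 alone was past 1.5-fold here, as Psmb6 alone had been with LPS.

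In the cap, Psmd7, a structural partner of Psmd14 in the lid, was the one member past 2-fold. It read 277 unstimulated, 371 with LPS and 175 with 8-Br-cAMP, 2.12-fold lower than with LPS (log2 differences of -1.89 to -0.94 across scalings). A dimmer probe set read 61.5 with LPS and under the floor with 8-Br-cAMP, in the same direction. Psmd14 itself read 1134 and 1327 (0.23). Psmc1 (-0.45) and Psmc6 (-0.40) were the lowest of the ATPases, and Psmc4 (0.37) the highest, by their brightest probe sets. The second probe sets of Psmc6 (0.38) and Psmc4 (-0.05) went the other way. Psmc2 read 756 on both arrays and Psmc3 differed by 0.15. The lid subunits Psmd6 (0.02), Psmd12 (-0.08), Psmd3 (0.12) and Psmd8 (0.14) differed by little. Psmd13, also of the lid, read 277 with LPS and 414 with 8-Br-cAMP, at 0.58 just inside 1.5-fold, and its second probe set gave 0.61.

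Psmd11, a scaffold of the lid, also depended on the probe set. Its brightest probe set read 1273, 1751 and 2731 and was 1.56-fold higher with 8-Br-cAMP than with LPS. The next 3 in brightness read 413, 429 and 374 with LPS and 379, 274 and 313 with 8-Br-cAMP, all lower. The mean over its probe sets gave -0.03. The higher value of Psmd11 thus belongs to its brightest probe set.

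**Figure D3:**
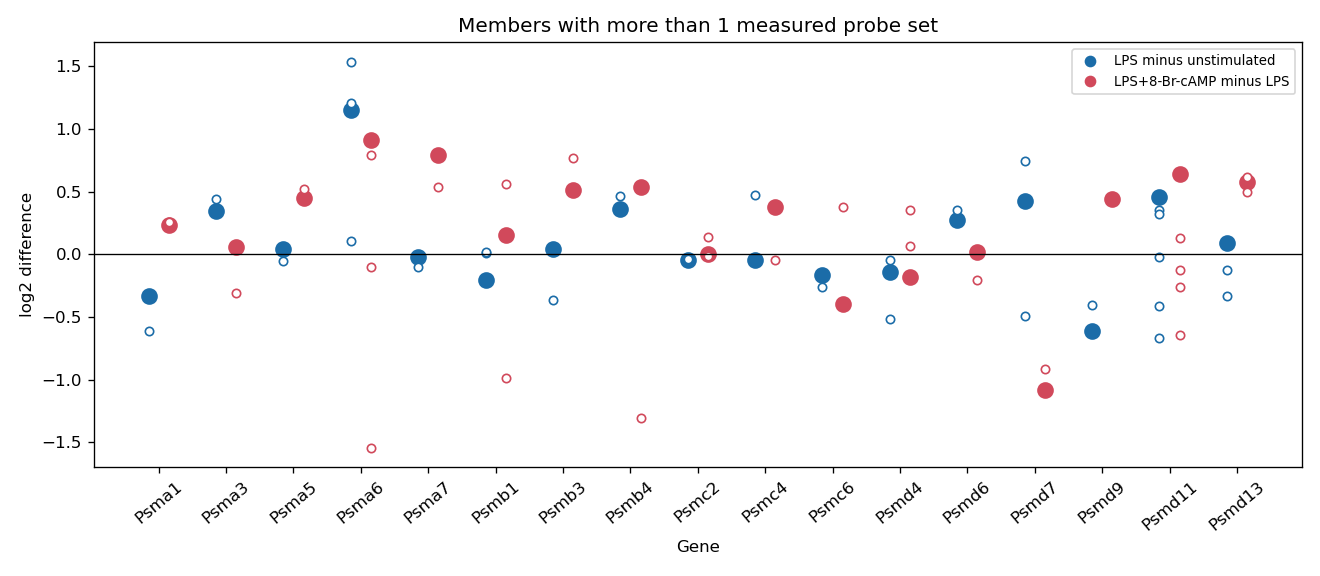
Log2 differences from the brightest probe set (large filled circles) and every other measured probe set (small open circles) of the 17 members that had more than 1, for LPS minus unstimulated (blue) and LPS+8-Br-cAMP minus LPS (red), 1 array against 1. Blue points stay together for Psmc2 near 0 and for 3 of 4 points of Psma6. Those of Psma5, Psmb1, Psmb3, Psmc4, Psmd7, Psmd11 and Psmd13 fall on both sides of 0. Red points of Psmb4, Psma6, Psmd11 and others also do.

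Over all members, 27 other probe sets gave a value for LPS against unstimulated, and 16 of these had the sign of the brightest one. For 8-Br-cAMP added to LPS it was 11 of 25. Among members past 1.5-fold with LPS, Psma6 had 3 of 3 other probe sets of the same sign, Psmd9 had 1 of 1, and Psmb6, Psmd10, Psmc5 and Psmd5 had no other. Among those past 1.5-fold with 8-Br-cAMP added, Psma7 and Psmd7 had 1 of 1, Psma6 1 of 3 and Psmd11 1 of 4, and Psmb2 and Psmb7 had no other.

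Set against unstimulated cells, the culture with LPS and 8-Br-cAMP shares its array with the comparison above, so its values are given beside them and not as a separate result. The members' median was 0.29 against -0.12 for all 12793 measured genes, and -0.76 against -1.08 in the deposited signals. At least 1.5-fold higher were 10 of 35 members, against 18.5% of all genes, and 3 were lower, against 29.5%. At 2-fold 3 members were higher, against 9.36% of all genes, and 0 lower, against 15.8%. Psma6 led, 4.18-fold higher, followed by Psmb6 (2.25-fold) and Psmd11 (2.15-fold by its brightest probe set). Psmb4 (0.90), Psmb2 (0.83), Psma7 (0.77), Psmd14 (0.74), Psmd13 (0.67), Psma2 (0.64) and Psmd10 (0.63) completed the higher ones. Psmc1 (-0.77), Psmd5 (-0.72) and Psmd7 (-0.66) were the lower ones. Of these members past 1.5-fold, 6 had another measured probe set, and for 2 of the 6 every other one had the same sign. The second probe set of Psmb4 gave -0.85, and 2 of 3 others of Psmd13 had the sign of its brightest. Over all members, 17 of 28 other probe sets had the sign of the brightest. The core's median was 0.52 and the base's -0.19. Under quantile normalization they were 0.21 and -0.34, and in the deposited signals -0.57 and -1.28.

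Across the 3 arrays, 11 of the 34 members above the floor throughout stepped up from unstimulated to LPS to LPS with 8-Br-cAMP under the main scaling, against 15.2% of 9078 genes above the floor on all arrays. These were Psma2, Psma3, Psma5, Psma6, Psmb3, Psmb4, Psmd6, Psmd8, Psmd11, Psmd13 and Psmd14, all core or lid genes. The other scalings gave 8 to 14, Psmc4 and Psmd1 of the base among them, and the deposited signals 1, Psma6. Psma3, Psma5, Psmb3, Psmb4, Psmd6, Psmd11 and Psmd13 stepped up by their brightest probe set and not by the next. Psma6 stepped up by both, and Psma2, Psmd8 and Psmd14 had 1 probe set. Stepping down under the main scaling were 4, all base genes: Psmc1, Psmc6, Psmd2 and Psmd4, against 26.9% of genes. The other scalings gave 3 to 6, and the deposited signals 22. Under quantile normalization and spike scaling the core gene Psmb5 was among them. The next probe sets of Psmd4 (525, 510 and 533) and Psmc6 (86.4, 72.3 and 93.8) did not step down. The range between a member's highest and lowest array had a median of 0.56 on the log2 scale, and 29 of 34 members stayed within 2-fold over all arrays.

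The genes whose products exchange with the cutting subunits were all higher with LPS, against 38.2% of all measured genes. Psmb9 read 480 unstimulated and 1108 with LPS (1.21), Psmb8 900 and 1620 (0.85) and Psmb10 677 and 954 (0.50). The log2 difference of each with LPS was set beside that of the subunit it replaces. The difference of Psmb8 exceeded that of Psmb5 by 0.77, and the difference of Psmb10 exceeded that of Psmb7 by 0.75. Psmb9 and Psmb6 were higher with LPS by the same amount within 0.0011. Adding 8-Br-cAMP left Psmb8 (-0.09) and Psmb9 (-0.03) near the LPS level, beside -0.14 for Psmb5 and -0.04 for Psmb6. Psmb10 differed by -0.26 there and Psmb7 by 0.74, so the order of this pair's differences was turned.

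Proteins that attach to the proteasome were also listed. Their values come from the brightest probe set alone, of 4 for Usp14 and 6 for Psme4, and the others were not compared. Among the activators, which open the core's gate, and the inhibitor, 4 of 5 were measured. With LPS 3 of them were higher, against 38.2% of all measured genes. Psme1, of the interferon-inducible activator, was 1.53-fold higher with LPS and Psmf1, the inhibitor, 1.53-fold lower. Psme4, a nuclear activator, was 1.71-fold lower with 8-Br-cAMP than with LPS. Of the other cap components, Sem1 differed by 0.20 with LPS and by -0.05 with 8-Br-cAMP. The ubiquitin-trimming enzymes of the cap were lower with 8-Br-cAMP, Usp14 at 113 against 281 (2.48-fold) and Uchl5 1.58-fold. Psme2 and Adrm1 were not analysed here.

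Of 6 factors that assemble the proteasome, all 5 measured were lower with LPS (4 of 5 under quantile normalization and cyclic loess). Of all 12283 measured genes 7588 were lower. The factors' median was -0.98, against 0.043 for the members and -0.21 for all measured genes. Their values come from the brightest probe set alone, of 3 for Psmg2 and 2 for Psmg3 and Psmg4, and the others were not compared. Psmg3 read 129 unstimulated, 33.1 with LPS and 143 with 8-Br-cAMP, 3.89-fold lower with LPS and 4.32-fold higher with 8-Br-cAMP than with LPS alone. Its LPS signal was close to the floor. Psmg2 was 2.16-fold lower with LPS, at 55.5 against 120, and Psmg1 1.97-fold, at 115 against 226. Pomp, the maturation factor of the core, differed by -0.30 and Psmg4 by -0.13. Thus 3 of 5 of these factors were at least 1.5-fold lower with LPS, against 28.6% of all measured genes. Of the 3 chaperones of the cap Psmd5 was too, and Psmd9 in some settings.

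**Figure D4:**
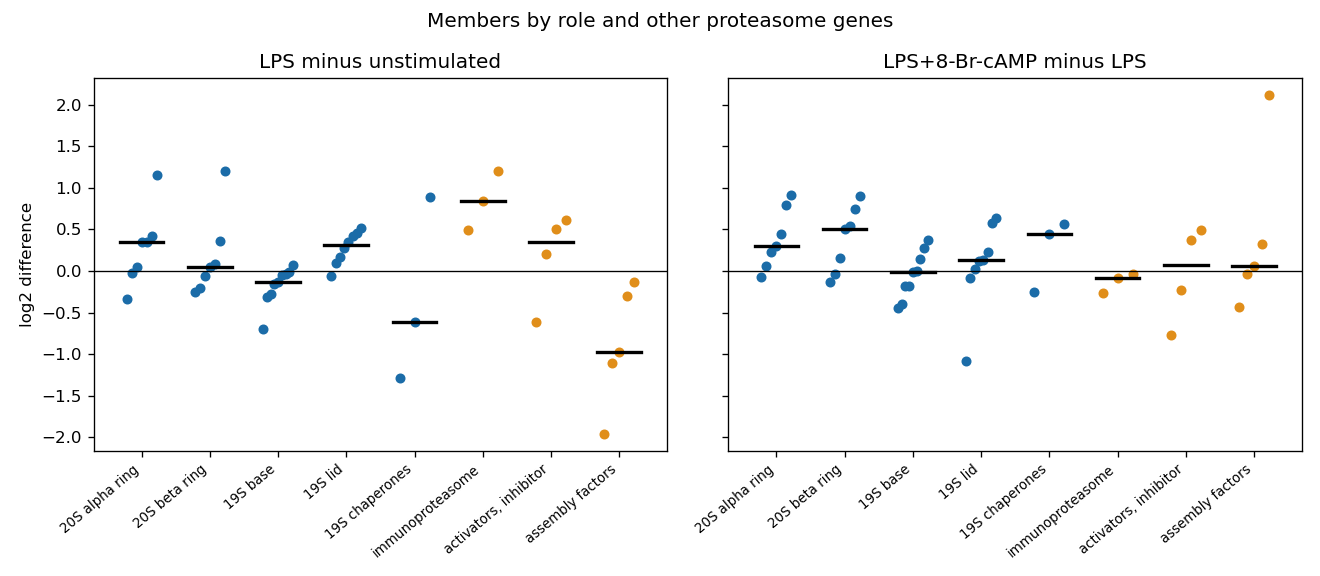
Log2 differences of the members by role (blue) and of other proteasome genes (orange), for LPS minus unstimulated (left) and LPS+8-Br-cAMP minus LPS (right); each point is a gene from 1 array against 1 and each bar the median of its group. With LPS the immunoproteasome subunits (median 0.85) lie above the constitutive groups and the assembly factors (median -0.98) below them; with 8-Br-cAMP the alpha ring (0.30) and beta ring (0.51) lie above the base (-0.02).

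Cytosolic ribosomal protein genes, another set of steadily made transcripts, were used for comparison. With LPS 1 of 44 passed 1.5-fold and 23 were higher, with a median of 0.019. That median was -0.16 under quantile normalization, -0.30 under cyclic loess, -0.32 under spike scaling and -0.27 in the deposited signals. With 8-Br-cAMP 41 of 44 were higher than with LPS, with a median of 0.52, but 0.17 under quantile normalization and -0.29 in the deposited signals. The 20S core genes had medians of 0.37, 0.29 and -0.44 under the same settings. Both sets thus moved with the scaling of the dim array, and no test of a difference between them was possible.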

How the data were processed

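Per the labels' protocols, total RNA from each culture was labelled as biotinylated cRNA and hybridised to 1 Affymetrix Mouse 430 2.0 array. The authors deposited linear intensities, 1 for each probe set. Per the submitters' processing notes they came from MAS5, with version and target value not given in the sources used here.

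Of 45101 probe sets 64 were controls and were left out. Genes came from single-gene probe sets of the platform annotation. The members had 74 such probe sets. Each array was multiplied so that its mean, trimmed by 2% at each end, reached the average of the 3. The highest scaled median (32.5) was the floor, to which lower signals were raised before taking log2. The brightest probe set stood for a gene, which was measured in a comparison when above the floor on at least 1 array compared. Differences past 1.5-fold and 2-fold were counted. The error of 1 probe set was the SD of the difference between the log2 differences of a gene's brightest pair of probe sets, both above the floor on both arrays, divided by the square root of 2. Nothing was tested, since each condition had 1 array, and the number of arrays limits the precision.

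Promoter sequences were RefSeq's on GRCm38.p6, with 29 of 36 members matched. Every member was accounted for, and of the listed pathway genes those past 1.5-fold in either LPS comparison or in lists of up to 4 genes were named. Pomp, Psmg4, Nfe2l1 and the marker genes named were added after their values were seen. Members and lists were chosen with earlier results of these data known. Alternatives were other scalings, floors, a pseudocount, other probe set choices and fewer members. The backgrounds of bright genes and of protein-coding promoters, and the scaling without the 8-Br-cAMP array, were chosen after seeing the data. Steps were tested on simulated data, in Python 3.11.15 with pandas 2.3.3 and R 4.3.3 with limma 3.58.1.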

Additional observations from a re-analysis of the deposited data

How the results depend on the processing

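With 1 array per condition nothing here has replicate error, and the dimness of the 8-Br-cAMP array makes its direction depend on scaling. No paired analysis was possible because each condition had 1 array. In the deposited signals, with no scaling, the members' median was -0.24 for LPS against unstimulated, -0.66 for 8-Br-cAMP added to LPS and -0.76 for both agents against unstimulated. Less the median of all genes, the second was -0.011 and the third 0.31. Members at least 1.5-fold lower numbered 5, 18 and 23 in the same order, those at least 2-fold lower 4 and 16 in the last 2 comparisons, those at least 2-fold higher 0 for LPS and 0 for both agents, and those at least 1.5-fold higher 0 for 8-Br-cAMP added and 1 for both agents. Spike scaling gave medians of -0.29, 0.28 and 0.094. For LPS it gave 0 members at least 2-fold higher, 2 lower at that fold and 7 at least 1.5-fold lower. For 8-Br-cAMP added, 2 were at least 2-fold higher, 0 lower and 9 at least 1.5-fold higher, and for both agents 1 at least 2-fold higher, and 5 higher and 5 lower at 1.5-fold. Quantile normalization gave medians of -0.13 for LPS and 0.085 for both agents, and -0.011 and 0.12 less the median of all genes. It gave 1 member at least 2-fold higher with LPS, 0 at least 2-fold lower with 8-Br-cAMP added, and for both agents 1 at least 2-fold higher, and 6 higher and 1 lower at 1.5-fold. Cyclic loess gave 1 member at least 2-fold higher with LPS and a median 0.098 above all genes. For both agents it gave a median of 0.15 (0.17 above all genes), 1 at least 1.5-fold lower and 1 higher at 2-fold. The mean over probe sets gave a median 0.13 above all genes with LPS, 0 members at least 2-fold lower with 8-Br-cAMP added, and for both agents a median of 0.065 (0.16 above all genes) and 1 at least 1.5-fold lower. Probe sets ending in _at gave 6 at least 1.5-fold higher for both agents, a pseudocount 0 at least 2-fold lower with 8-Br-cAMP added, and the 25th percentile floor 2 at least 2-fold lower with LPS and 1 for both agents. With LPS, 1 member at least 1.5-fold lower and 0 at least 2-fold lower were left both without chaperones and tissue-restricted subunits and among members with a mean signal of 200 or more. Without the 8-Br-cAMP array in the scaling the LPS counts did not change.

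Of 25 values of single members past 1.5-fold, 4 of 6 with LPS, 1 of 6 with 8-Br-cAMP added (Psmd7) and 2 of 13 with both agents (Psma6 and Psmc1) stayed past it in all 5 other scalings. In all, 11 turned sign under some alternative, 3 for 8-Br-cAMP added and 8 for both agents. In the deposited signals those that turned were, for 8-Br-cAMP added, Psma7 (-0.018), Psmb7 (-0.069) and Psmd11 (-0.17), and, for both agents, Psma2 (-0.45), Psma7 (-0.32), Psmb2 (-0.26), Psmb4 (-0.19), Psmd10 (-0.46), Psmd13 (-0.43) and Psmd14 (-0.35). Psmd11 turned by the mean over probe sets (-0.032 and -0.027), by its second probe set, also the brightest that ends in _at (-0.12 and -0.14), and Psmb4 by its second probe set (-0.85). The causes were not tested.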

Other observations

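Genes that feed the proteasome or answer to its load were listed too, and went both ways. Their values come from the brightest probe set alone. Zfand5 had 7 probe sets, Ube3a and Txnl1 6, Uba6 5, and Ecpas and Zfand2a 4, and the others were not compared. Among shuttles that carry ubiquitinated proteins and the unfoldase complex of Vcp, 9 of 10 were measured, with medians of -0.01 for LPS against unstimulated and -0.09 for 8-Br-cAMP added to LPS. Faf1, a cofactor of Vcp, was 2.17-fold lower with LPS. With 8-Br-cAMP added, Vcp read 875 against 1502 with LPS (1.71-fold lower) and its cofactor Ufd1 was 1.83-fold lower. Of 7 proteasome-bound factors 3 were higher with LPS and 4 with 8-Br-cAMP added, against 38.2% and 53.2% of all measured genes. The ubiquitin ligase Ube3a read 743 unstimulated, 443 with LPS and 133 with 8-Br-cAMP added, 1.68-fold and then 3.33-fold lower. The scaffold Ecpas was 2.02-fold lower with 8-Br-cAMP added. Zfand5, a proteasome activator, was 2.51-fold higher with LPS and 1.64-fold lower again with 8-Br-cAMP added, and Zfand2a, a stress-inducible relative, went the other way, 3.14-fold lower and then 2.08-fold higher. Txnl1, a thioredoxin of the cap, was 1.58-fold higher with LPS.

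Of genes that control proteasome synthesis or respond to protein stress, 8 of 10 were measured. In each of these comparisons 4 of them were higher, against 38.2% of all measured genes with LPS and 53.2% with 8-Br-cAMP added. Nfe2l1, which drives subunit genes when the proteasome is blocked, read 243, 196 and 253, with no difference past 1.5-fold. Ngly1, which activates Nfe2l1, was 2.33-fold lower with LPS, and the cochaperone Bag3 1.95-fold lower. Sqstm1, a receptor that takes ubiquitinated cargo to autophagy, read 1728, 3344 and 5184, 1.94-fold higher with LPS and 1.55-fold higher again with 8-Br-cAMP added. Hspa1a, an inducible Hsp70, was at least 1.80-fold higher with LPS, from under the floor to 58.5, and Dnajb1, its partner, was higher by 0.59 on the log2 scale with 8-Br-cAMP added. The ubiquitin-activating enzyme Uba6 was 1.89-fold lower with 8-Br-cAMP added. The other 5 ubiquitin precursor and activating enzyme genes listed were not analysed here. Granulocyte and several macrophage transcripts were lower on the 8-Br-cAMP array, and their part in these values was not tested.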
